A study of Mus musculus with 216 samples.

Results

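The Gata family of the mouse has 6 genes, Gata1 to Gata6, which encode transcription factors with a pair of zinc fingers that bind DNA at the sequence GATA. All 6 were taken, out of 21938 protein-coding genes, together with every H3K9me3 domain that overlapped a gene body or the 10 kb to either side of it. This gave 7 of the 43039 domains in the deposited table. The family was chosen by the measured decay class, because Gata4 and Gata6 were known to carry domains of the class called residual. The counts of residual domains below therefore describe the genes that were picked and carry no test.

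Mouse embryonic stem cells of the line dTKO, with the genotype Suv39h1fl/fl, Suv39h2-/- and Setdb1fl/fl, were grown with LIF and serum. Auxin (100 µg/ml) and dTAG13 (0.5 µM), drugs that mark tagged proteins for breakdown by the cell, were added together to remove H3K9 methyltransferases. The labels do not say which protein carries which tag or how many clones the line represents. Chromatin was collected at 0, 1, 3, 12, 24 and 48 h, the first of these being the starting point, and all groups share the genotype and the line. The 216 deposited samples are sequencing runs: H3K9me3 or HP1β precipitates, and matched inputs, from 3 biological repeats per time with 3 runs per library. The question asked of the table was how H3K9me3 was lost at each place over this course. The table answers it with 1 word per domain (fast, intermediate, slow or residual) for all libraries together, so no value below has an error between cultures, and the depth behind a class is unknown. Loss of the methyltransferases and the identity of the cells could not be checked in a table of domains.

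H3K9me3 is the histone mark of constitutive heterochromatin, written by the SUV39H and SETDB1 enzymes and bound by HP1 proteins. Gata1, Gata2 and Gata3 are best known for blood: Gata1 in red cells and megakaryocytes, Gata2 in stem and progenitor cells, and Gata3 in T cells, with roles of Gata2 and Gata3 in trophoblast too. Gata4, Gata5 and Gata6 act in endoderm, heart and gut, and forced expression of Gata4 or Gata6 is known to turn mouse embryonic stem cells into primitive endoderm.

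Gata4, Gata5 and Gata6 each had a residual domain on coding sequence, which for Gata4 and Gata6 is what the choice of the family rested on. Gata1, Gata2 and Gata3 had no domain in their windows, Gata2 by a margin of under 1 kb. To show what lay under these domains, sequence from GRCm38 is given on the gene's strand, with each CpG dinucleotide in capitals. The first run is the stretch of the first coding exon of Gata4 at the edge of its residual domain (chr14:63240601-63240900, minus strand), with 32 CpGs in 300 bases. The second is the whole coding exon of Gata5 inside its residual domain (chr2:180332296-180332471, minus strand), which encodes the first zinc finger and has 10 CpGs in 176 bases. The third comes from the intermediate domain in the intron of Gata4 (chr14:63211241-63211440, minus strand), with 1 CpG in 200 bases. It sets intron beside coding exons, so these runs do not compare residual with intermediate domains. Most bases of the residual domains of Gata4 and Gata5 are intron too, and those are not printed.
Gata4 residual, coding: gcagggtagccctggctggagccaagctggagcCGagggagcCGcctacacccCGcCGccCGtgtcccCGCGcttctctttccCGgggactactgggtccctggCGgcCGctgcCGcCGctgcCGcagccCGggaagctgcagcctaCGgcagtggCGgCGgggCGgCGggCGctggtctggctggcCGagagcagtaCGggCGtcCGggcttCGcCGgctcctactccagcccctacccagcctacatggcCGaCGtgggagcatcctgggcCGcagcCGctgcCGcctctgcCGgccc
Gata5 residual, coding: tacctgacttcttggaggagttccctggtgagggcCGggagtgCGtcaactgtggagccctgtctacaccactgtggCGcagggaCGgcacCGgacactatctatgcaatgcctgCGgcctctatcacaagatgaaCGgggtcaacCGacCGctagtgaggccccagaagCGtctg
Gata4 intermediate, intron: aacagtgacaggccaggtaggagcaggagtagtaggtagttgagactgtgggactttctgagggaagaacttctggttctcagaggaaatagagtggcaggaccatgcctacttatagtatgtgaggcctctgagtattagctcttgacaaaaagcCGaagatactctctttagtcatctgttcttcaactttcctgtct

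Over the family, 4 domains were residual, 3 were intermediate, and 0 were slow or fast, where 4.57% of all domains are residual. A domain of some class lay in the windows of 3 of 6 members, or 50.0%, close to the 42.2% of all protein-coding genes. An intermediate domain lay at 2 of 6 members and at 32.1% of all genes, a slow one at 0 of 6 and 12.6%, and a fast one at 0 of 6 and 2.37%. For residual domains the 3 of 6 stand beside 5.05% of all protein-coding genes, a share that is itself uneven, at 18.1% on chromosomes 8 and 11 and 3.23% elsewhere. No member lies on chromosome 8 or 11, and on the chromosomes that hold members (2, 6, 14, 18 and X) the share was 3.67%. Among the 10922 genes whose windows were as long as those of the members, it was 4.21%. A residual domain on coding sequence itself, as at Gata4, Gata5 and Gata6, was found at 2.07% of genes, and at 1.07% with none of those domains on a promoter. Since the residual domains of Gata4 and Gata6 led to the choice of the family, nothing is read from these shares. The residual domain of Gata5 was not among the reasons stated for the choice. The family was still chosen with earlier results of these data known, so that domain is not an independent observation.

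Gata4, a regulator of endoderm and heart, had 3 domains and the longest gene body of the family (chromosome 14, 63198922 to 63271692, minus strand, 72.8 kb). The residual domain was 3.0 kb wide (63237901 to 63240900). Its edge nearest the start of the gene lay 248 bp downstream of the start codon and 4348 bp downstream of the start of the principal transcript. It covered 365 coding bases of exon 2, the first coding exon, and ran 2635 bases into the intron that follows. The codons inside were 83 to 205 of 441, so the start codon and both zinc fingers, at residues 216 to 240 and 270 to 294, lay outside. An intermediate domain of 1.8 kb (63210301 to 63212100) sat in the same long intron, 29048 bp beyond the start codon. Another of 2.1 kb (63279901 to 63282000) lay 8.21 kb upstream of the gene body, where no gene is annotated.

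Gata6, the earliest acting of the endoderm factors in the embryo, was the member with residual domains alone (chromosome 18, 11052064 to 11085635, plus strand). The wider was 3.3 kb (11054401 to 11057700) and began 328 bp downstream of the start codon and 1931 bp downstream of the transcript start. It held 789 coding bases of exon 2 and 2511 bases of the next intron. These were codons 110 to 373 of 589, or 44.7% of the coding sequence, which again stopped short of the zinc fingers at residues 384 to 408 and 438 to 462. The second residual domain, of 1.8 kb (11046001 to 11047800), lay 4264 bp upstream of the gene body, within the span of the noncoding transcript 1010001N08Rik, which is transcribed from the other strand. Windows with at least a pair of residual domains made up 1.25% of all protein-coding genes.

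Gata5, a factor of endoderm, gut and heart valves, had the smallest gene body (chromosome 2, 180325133 to 180334699, minus strand, 9.57 kb). Its residual domain was the narrowest of the 4, at 1.5 kb (180331801 to 180333300), and lay 1069 bp downstream of the start codon, which is in exon 1 here. It missed that exon and covered all 176 coding bases of exon 2 with 1324 bases of intron to the sides. The codons inside were 182 to 240 of 404, and they held the whole first zinc finger (residues 196 to 220, 75 of 75 bases) but none of the second (residues 250 to 274). The domain thus lay further from the start codon than those of Gata4 and Gata6, and over another part of the protein. The annotated antisense gene Gata5os runs into the same domain, and H3K9me3 cannot be assigned to either gene. An intermediate domain of 2.4 kb (180315601 to 180318000) lay 7.13 kb downstream of the gene body, where no gene is annotated.

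**Figure D1:**
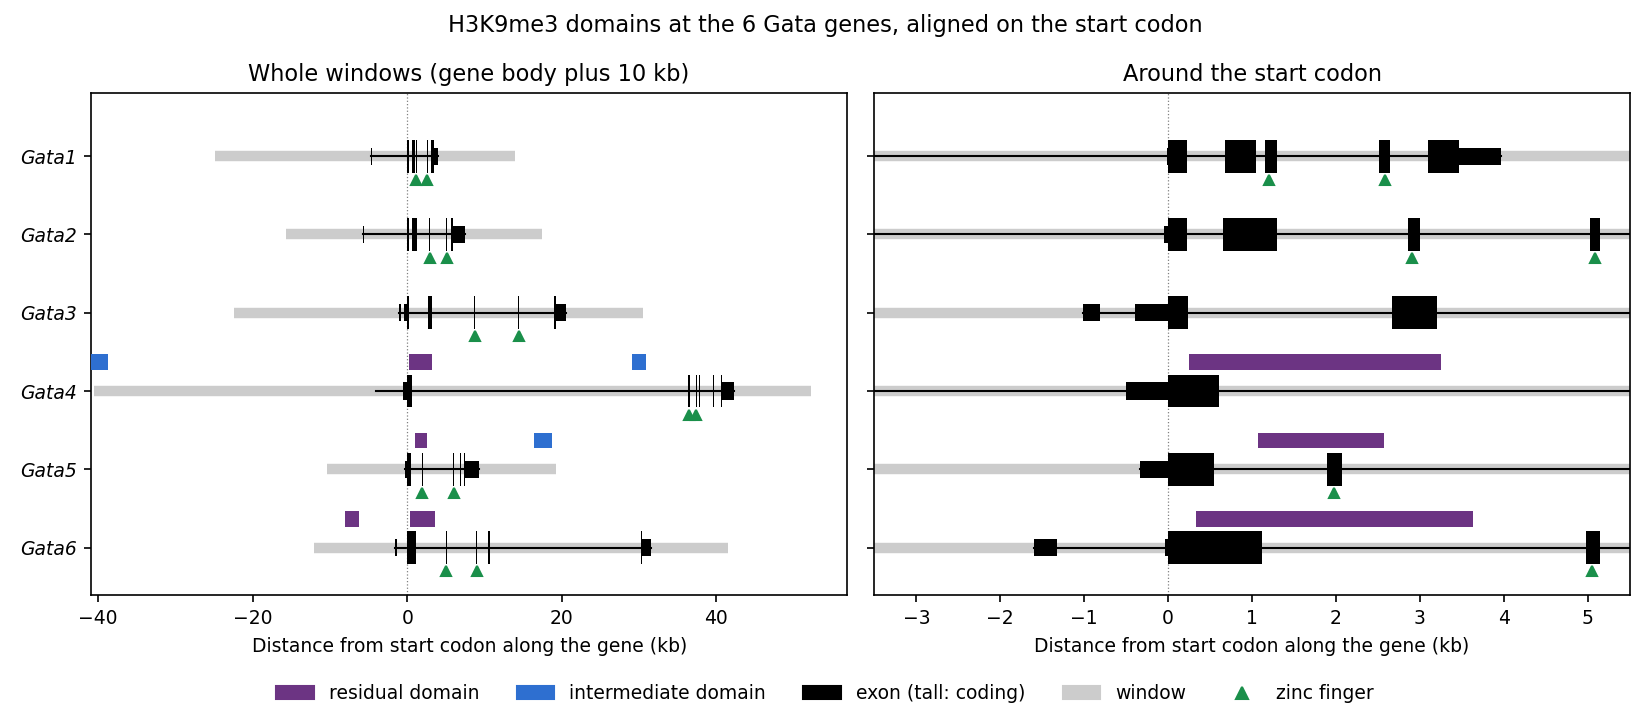
Gene models of the principal transcript of each Gata gene and the H3K9me3 domains in its window, drawn along the direction of transcription in kb from the start codon. The left panel shows whole windows and the right panel the start of the coding sequence, where the residual domains of Gata4, Gata5 and Gata6 begin 248, 1069 and 328 bp beyond the start codon.

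By their listed edges, the residual domains on coding sequence all lay downstream of the start codon, at differing distances. Of these, 0 of 3 held the start codon and 0 of 3 touched a promoter (within 1 kb of the start of any protein-coding transcript). Bases in an untranslated region numbered 0. Edges lie on a grid of 300 bp, so at Gata4, with 248 bp, it is not resolved whether the mark reaches the start codon. The 3 intermediate domains had 0 coding bases. Where promoters were drawn 5 kb to either side, 5 of the 7 domains touched one. Over the genome, 497 pairs of a gene and a residual domain met on the coding sequence of a principal transcript. In 330 of them, or 66.4%, the domain lay wholly downstream of the start codon. The same share was 81.3% of 1362 pairs for intermediate domains, 75.6% of 545 for slow and 66.0% of 97 for fast domains. Lying downstream of the start codon was thus common in every class. Reaching the first coding exon was less so: it held for 42.9% of residual, 42.3% of fast, 28.4% of slow and 23.2% of intermediate pairs. It held for Gata4 and Gata6 but not for Gata5. These shares include genes with 1 coding exon, where every pair reaches it. In genes with 2 or more coding exons, as the members have, the shares were 34.3% for residual, 30.9% for fast, 22.3% for slow and 15.8% for intermediate pairs.

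Gata1, Gata2 and Gata3 differed among themselves in how far the mark was. Gata1, on X (7959260 to 7978071, minus strand), was the most isolated, with its nearest domain, an intermediate one of 3.0 kb, 346 kb upstream. Gata3, on chromosome 2 (9857078 to 9890034, minus strand), was next, with an intermediate domain of 2.7 kb at 163 kb downstream. Gata2, on chromosome 6 (88193891 to 88207032, plus strand), fell just outside the limit of 10 kb: an intermediate domain of 0.9 kb lay 10.4 kb downstream of its body. The domain just inside that limit was the upstream one of Gata4 at 8.21 kb. Within 50 kb, Gata2 had 4 domains, of which 1 was residual (88233001 to 88234800, 26.0 kb downstream) and overlapped Dnajb8, a chaperone gene, not Gata2 itself. Within 500 kb, Gata1 had 6 domains and Gata3 had 7, with 0 residual in either. Gata2 had 12 (1 residual), Gata4 10 (1), Gata5 10 (2) and Gata6 17 (3), so the counts at this distance did not separate Gata2 from the members with a domain in the window.

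**Figure D2:**
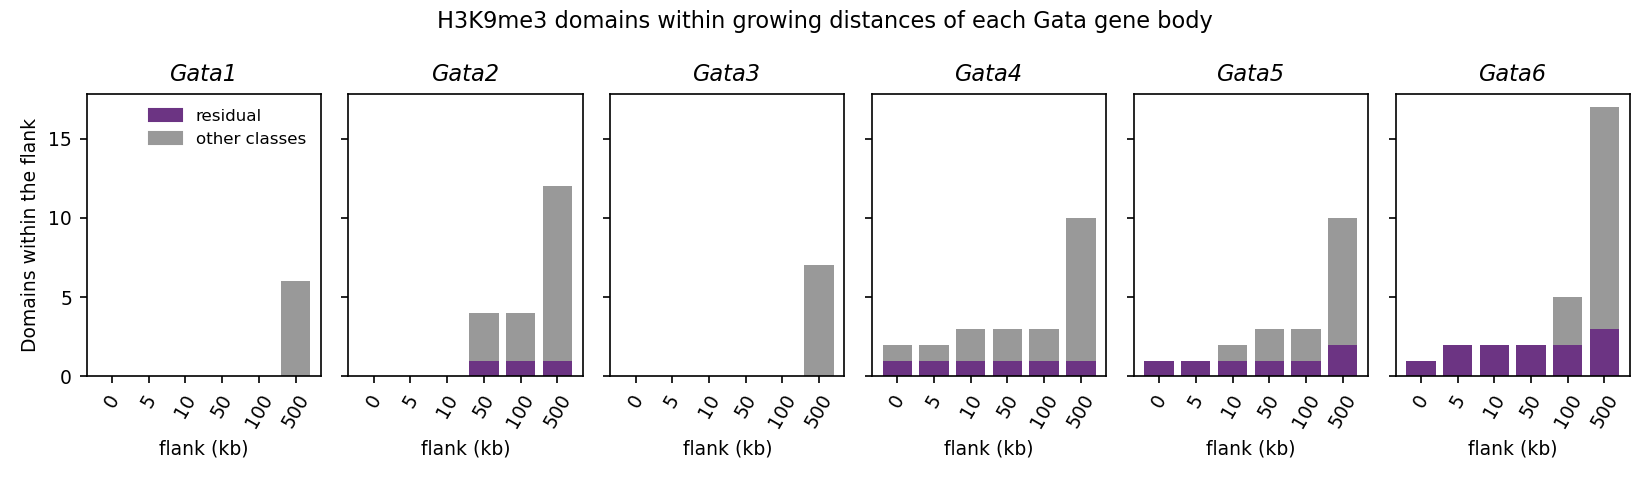
Number of H3K9me3 domains within 0, 5, 10, 50, 100 and 500 kb of each Gata gene body, with residual domains in purple and other classes in grey. Gata1 and Gata3 have none up to 100 kb, Gata2 has 4 at 50 and 100 kb and 12 at 500 kb, and Gata4, Gata5 and Gata6 have a residual domain within the gene body itself.

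Gata4, Gata5 and Gata6 also had longer first coding exons than the blood members. Their coding parts were 613 bases in Gata4, 544 in Gata5 and 1117 in Gata6. In Gata1, Gata2 and Gata3 these parts were 220, 229 and 238 bases. The length of this exon over all genes was not measured, so nothing is read from the difference. In Gata5 the residual domain held 0 bases of this exon. GC content of these exons was 73.6% in Gata4 and Gata6 and 69.3% in Gata5, against 56.4% in Gata1, 65.9% in Gata2 and 61.3% in Gata3. CpG richness did not follow the same line. The observed over expected CpG ratio, where 1 means as many CpGs as the base composition gives, was 0.728 in Gata4, 0.882 in Gata5 and 0.898 in Gata6. It was higher in Gata2 (1.03) and Gata3 (0.949), and low in Gata1 (0.117). Every 31-mer of these 6 exons occurred once in the genome, so reads of that length in them have 1 place to map.

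Within the whole domains, sequence was mostly unique. A 31-mer read every 100 bp was unique at 100% of positions in all 4 residual domains and in the intron domain of Gata4. The values were 76.2% in the upstream domain of Gata4 and 83.3% in the downstream domain of Gata5, both intermediate. The median was 95.2% over all 1960 residual domains and 50.0% over all 30660 intermediate ones. Read at every base, the upstream residual domain of Gata6 had 97.1% unique 31-mers, the residual domain of Gata4 99.97%, and the coding ones of Gata5 and Gata6 100%. The 4 residual domains shared 0 31-mers with each other, although the genes are related.

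Soft-masked (repeat) sequence made up 11% of the residual domain of Gata4, 7.07% of that of Gata5, and 8.03% and 21.4% of the coding and upstream domains of Gata6. The intermediate domains held 19.9, 36.8 and 21.3%. Over the genome the median was 17.04% for residual domains and 72.3% for intermediate domains, with the lower quartile of the latter at 39.2%. The 3 intermediate domains at Gata genes thus all lay below the lower quartile of their class. Their GC content was 49.1 to 51.9%, above the upper quartile of 45.3% for intermediate domains.

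The CpG ratio set the coding domain of Gata6 apart. It was 0.505, higher than in 97.2% of residual domains, against 0.294 in Gata4, 0.174 in Gata5 and 0.156 in the upstream domain of Gata6. The intermediate domains had 0.126 (intron of Gata4), 0.114 (upstream of Gata4) and 0.223 (downstream of Gata5), so the classes overlapped. The median was 0.193 over residual domains and 0.259 over the 278 residual domains on coding sequence away from promoters (upper quartile 0.345). Motifs of the family's own binding site (the letters GATA with A or T before them and A or G after them, on either strand) numbered 2 in the residual domain of Gata4, 3 in that of Gata5, and 6 and 5 in the coding and upstream domains of Gata6. Per kb that is 0.667, 2.0, 1.82 and 2.78, beside a median of 1.67 over residual domains, of which 94.0% held at least 1. A match is a string of letters and not a bound site.

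**Figure D3:**
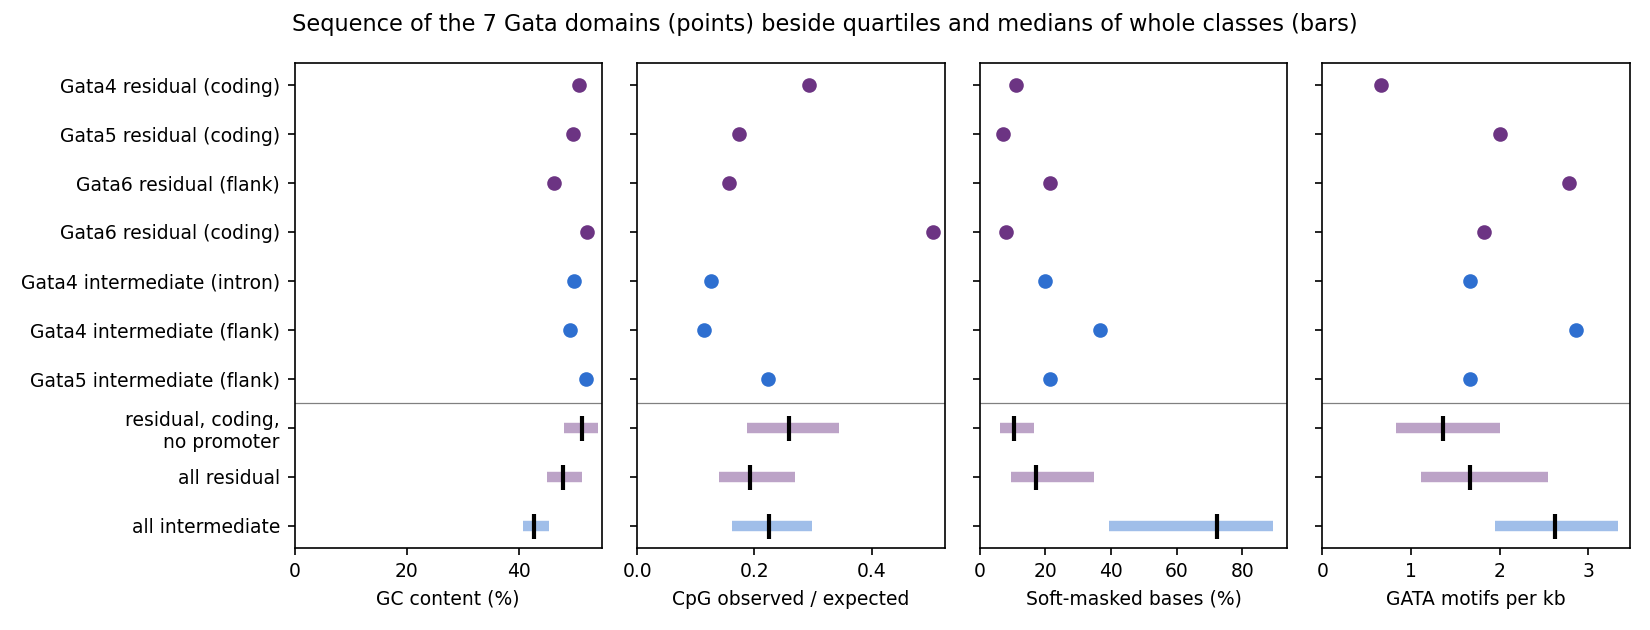
GC content, CpG observed over expected ratio, soft-masked share and GATA motifs per kb of the 7 domains at Gata genes (points; purple residual, blue intermediate), above the quartiles (bars) and medians (ticks) of residual domains on coding sequence away from promoters, all residual and all intermediate domains. The coding domain of Gata6 has the highest CpG ratio, 0.505, and the 3 intermediate domains lie left of the bar of their class for soft-masked sequence.

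The genes whose residual domains most resembled those of Gata4 and Gata6 were looked up among 144 protein-coding genes. Their windows held residual domains alone, with at least 1 on coding sequence and none on a promoter. Likeness was the summed difference, on the log2 scale, in residual length and in distance from the start of the gene record to the middle of the widest domain, over the 1 deposited table. Those nearest to Gata4 (3.0 kb at 32.3 kb) included Hs3st3b1 (3.3 kb at 32.6 kb), Nr1i2, Trim11 and Klhl26. Gata4 itself also has intermediate domains in its window, so it would not pass this filter. Its 32.3 kb is counted from the gene record, whereas its principal transcript starts 4348 bp from the domain. These genes are thus not matched to Gata4 in distance from the principal transcript start. Those nearest to Gata6 (5.1 kb at 3.99 kb) were Usb1 (5.4 kb at 3.98 kb), Insl3, Wnt7a, Cilp2 and Spata20. The 5.1 kb of Gata6 is the total of its 2 residual domains, of which only the wider is on coding sequence. Insl3, Wnt7a and Cilp2 had 1 residual domain each. Of the genes named here, all but Nr1i2 and Wnt7a lie on chromosome 8 or 11.

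Domains were also counted over 7 lists of 110 genes in all, some genes being in more than 1 list. The lists held cofactors, other genes with a GATA-type zinc finger, and genes of lineages and of pluripotency. Not all of these genes act with the Gata factors. A domain lay at 50 of the 110, or 45.5%, beside the 42.2% of all protein-coding genes. A residual domain lay at 15, or 13.6%, beside 5.05%. Of the 15, 6 were on chromosomes 8 and 11, and the remaining 9 made up 10.2% of the 88 listed genes on other chromosomes, where 3.23% of all genes had one. These lists were drawn up with the residual domains on lineage genes already known, so the shares describe them and support nothing.

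Among cofactors, 11 of 22 had a domain and 4 had a residual one. Tbx5, a heart factor that works with Gata4, had a residual domain of 2.1 kb on 148 coding bases (chromosome 5, 119841301 to 119843400). Hand2, another heart factor, had 4 residual domains of 1.5 to 22.8 kb around it on chromosome 8, with 0 coding bases in them. The one of 3.3 kb was at a promoter, which for the listed genes can be that of another gene. Cbfa2t3, a corepressor in blood cells, had a residual domain of 4.5 kb at a promoter. Lyl1, a basic helix-loop-helix factor named after its values were seen, had one of 1.8 kb on 630 coding bases, also at a promoter. Cbfa2t3 and Lyl1 both lie on chromosome 8. Zfpm2, the partner known as FOG2, had a slow domain of 1.8 kb lying wholly on coding sequence and an intermediate one of 4.2 kb. Zfpm1, the partner of Gata1, named after its value was seen, had none.

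Of 26 endoderm genes, 12 had a domain and 5 a residual one. Foxa1, a pioneer factor of endoderm, had a residual domain of 3.0 kb outside its body, while Foxa2 had an intermediate one of 3.9 kb outside its body. Amn, a receptor subunit of visceral endoderm, had a residual domain of 4.2 kb on 1167 coding bases (chromosome 12, 111273601 to 111277800). The neighbours Col4a1 and Col4a2, basement membrane collagens of chromosome 8, met 5 residual domains between them, 2 of which lay in both windows. The one of 2.7 kb, at Col4a1, was at a promoter. Cxcr4, a chemokine receptor named after its values were seen, had one of 1.5 kb on 1056 coding bases. Sox17, Sox7, Hnf4a and Pdgfra, also named after their values were seen, had no domain in their windows.

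Of 18 heart genes, 8 had a domain and 3 a residual one: Tbx5 and Hand2 again, and Myh6, a cardiac myosin heavy chain, with 7.8 kb over 2546 coding bases (chromosome 14, 54946501 to 54954300). Of 20 blood genes, 7 had a domain and 2 a residual one. These were Lyl1, with its domain at a promoter, and Hba-a1, an alpha globin gene on chromosome 11 named after its values were seen. The domain of Hba-a1 had 0 bases in its gene body. It touched a promoter, but whether that of Hba-a1 or of another gene was not recorded. The T cell and trophoblast list had the largest share of the 7, with 11 of 16, and 3 residual. Among these were Cdx2, the trophoblast factor, and Krt18, a keratin named after its value was seen. The domain of Cdx2, of 3.9 kb, lay outside its body but at a promoter of this or another gene. Of 15 pluripotency genes, 6 had a domain and 1 a residual one, Tbx3, also named after its value was seen. Of 9 other genes with a GATA-type zinc finger, 2 had a domain (Gatad1 and Zglp1, both intermediate and named after their values were seen) and 0 a residual one.

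**Figure D4:**
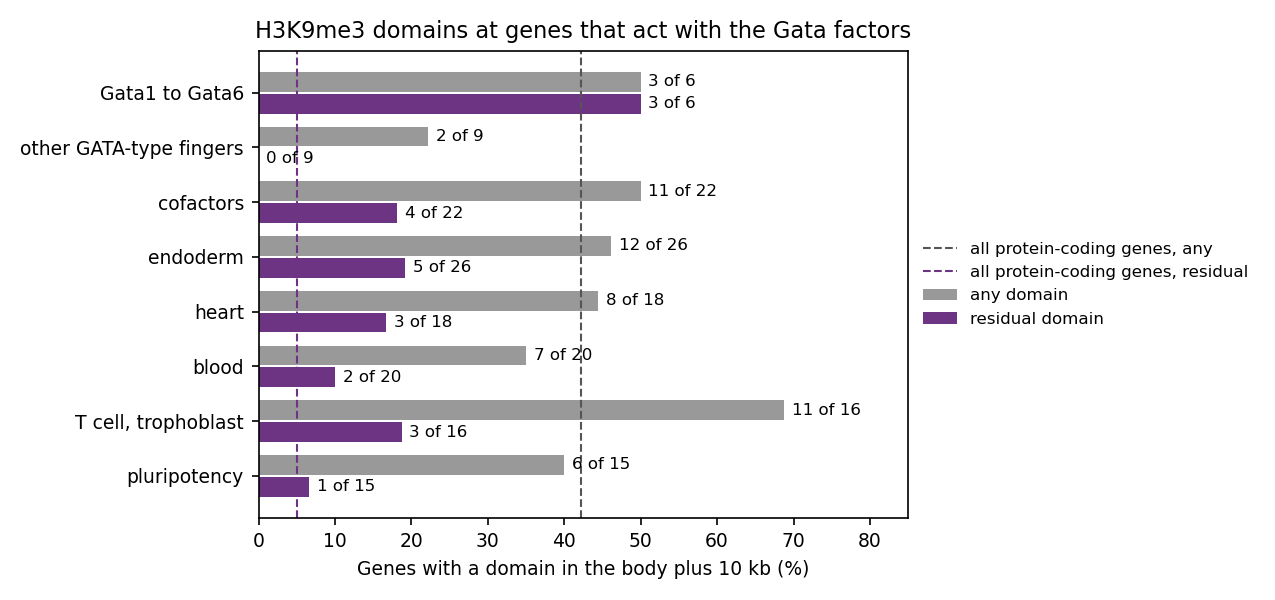
Share of the genes of each list with an H3K9me3 domain of any class (grey) or a residual domain (purple) in the gene body plus 10 kb, with counts beside the bars. Dashed lines mark the shares over all protein-coding genes, 42.2% for any domain and 5.05% for a residual one. Not all of the listed genes act with the Gata factors.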

How the data were processed

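The deposited table holds 43039 domains, each with its coordinates and a decay class in words, and 0 columns of sample values. The submitters' processing notes name bedtools, deepTools, SAMtools 1.1 and Bowtie2 2.3.4.1 as tools, and GRCm38, mm10, mm9 and dm6 as builds. The sources used here do not say how domains were called, scaled by the Drosophila spike-in or divided into classes. Residual and slow domains have the same display colour in the table, and the rank of the residual class is not given either. Boundaries lie on a grid of 300 bp, so distances to an edge are no finer than that.

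The 42890 domains on the 19 autosomes and the sex chromosomes were compared with GENCODE vM21 genes and the GRCm38.p6 sequence. An overlap needed 1 bp. The principal transcript was the APPRIS one with the longest coding sequence. Zinc fingers were found by their cysteine spacing in the translated coding sequence. Copies of 31-mers were counted on both strands, and the overlap and copy-counting code was tested on simulated data. Python 3.11.15, numpy 2.4.6, pandas 2.3.3, pysam 0.24.0, numba 0.67.0, Biopython 1.88 and matplotlib 3.10.9 were used.

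No tests were run, because the members were chosen for the classes and the table has no replicates. Members and gene lists were chosen with earlier results of these data known. Named genes are all 6 members, up to 30 listed genes with the widest domains, and the 5 genes most like Gata4 and Gata6 each. Genes outside that rule are marked where they appear, apart from genes named only because they overlap a domain near a member, and some genes that it names are not reported here. Alternatives changed the flank, the overlap rule, short domains, joining, promoters, exons, the length of the k-mers and the motif. HP1β, the inputs and values over time were not analysed here.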

Additional observations from a re-analysis of the deposited data

How the results depend on the processing

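With gene bodies alone, the members met 4 domains (1 intermediate) and the listed genes with a domain were 31. With a flank of 5 kb, the intermediate domains were again 1. With 50 kb, there were 12 domains (7 intermediate) and 79 listed genes, and with 100 kb 15 domains (10 intermediate) and 98 listed genes. With domains up to the lower quartile of width (1.8 kb) left out, 4 domains remained, 2 of them residual, at Gata4 and Gata6, since the residual domain of Gata5 is 1.5 kb wide. With promoters of 5 kb, 5 domains touched one instead of 0. The members with a domain were Gata4, Gata5 and Gata6 under each setting up to 10 kb and under every change of overlap, width and joining tried, with Gata2 added at 50 and 100 kb. Half-overlap, midpoint, domains under 1 kb left out, joining and the longest transcript's exons left the counts for the members and lists within 1.5 times. With 51-mers the unique share of the 7 domains was 81.0 to 100%, and with the core letters GATA alone the matches were 2.08 to 4.76 per kb. No paired analysis was possible because the table holds no value per sample, and for the same reason no replicate could be left out.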

Other observations

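In a count chosen after the values were seen, Gata4 and Gata6 were among 13 genes with a residual domain of 1 layout. The domain reached the first coding exon, lay wholly downstream of the start codon and touched no promoter. These were 13 of the 497 residual pairs on coding sequence, beside 17 of 1362 intermediate, 8 of 545 slow and 4 of 97 fast pairs. For genes with 2 or more coding exons they were 7 of 432 residual, 4 of 1242 intermediate, 2 of 502 slow and 0 of 81 fast pairs. The layout thus occurred outside the residual class too, and nothing is read from these counts. Of the 13, 7 have more than 1 coding exon. The others of these were Adcy5, an adenylyl cyclase, Frem2, a basement membrane protein, Hivep2, a zinc finger factor, Itpkb, an inositol kinase, and Pcdhgc4, a clustered protocadherin. Their domains began 902, 1184, 1141, 990 and 968 bp beyond the start codon, against 248 bp in Gata4 and 328 bp in Gata6. The distance at Gata4 is shorter than 1 step of the 300 bp grid of domain edges. The 6 genes with a single coding exon were Amer2, Eppk1, Foxc2, Htr1a, Irs1 and Zbtb42. Foxc2, a forkhead factor of mesoderm, was the nearest of these, at 586 bp.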
